A study of Arabidopsis thaliana with 6 samples.

Results

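The genes described are 10 Arabidopsis thaliana genes of flavonoid and anthocyanin synthesis, set among 22681 entries kept after a filter on dim probes. Of these entries, 19121 are genes with a locus and 3560 are known by the array's own name only and may repeat named genes; all are called genes below. The 10 were chosen for their place in the pathway and found by locus through the transcript accession of each probe, at a time when earlier results of these data were known: 5 genes for early steps (CHS, CHI, F3H, F3'H and FLS1), 4 genes for late steps (DFR, LDOX, UF3GT and 5GT) and the regulator PAP1 (MYB75). Each of the 10 was read by a probe whose signal exceeded background clearly on all 6 arrays. RNA of whole Columbia-0 seedlings was measured on 1-colour arrays, 3 of the pgp1-2 mutant and 3 of the wild type. PGP1 encodes a phosphatidylglycerophosphate synthase, an enzyme on the route to phosphatidylglycerol, and the study's title joins this lipid to plastid gene expression and to light-induced photosynthesis genes in the nucleus. The pgp1-2 seedlings were 21 d old and the wild-type seedlings 14 d old. Both stood in continuous light on agar (0.8%) with 3% sucrose, and per the labels' protocols both spent their last 7 d in dimmer light (15 µmol photons m-2 s-1), after 14 d (pgp1-2) or 7 d (wild type) in light of 30 in the same unit. Genotype and age therefore cannot be told apart in any difference below. How many seedlings made up a sample, and whether samples were grown separately, is not given in the sources used here, so p-values measure the spread between these samples, which may be partly technical.

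Flavonoids are plant phenolics made from phenylalanine by way of the general phenylpropanoid pathway. Their synthesis branches at the dihydroflavonols, which flavonol synthase turns into colourless flavonols and dihydroflavonol reductase passes on towards the red and purple anthocyanins. In Arabidopsis seedlings the early genes, up to the flavonols, are known as targets of the related activators MYB11, MYB12 and MYB111, and the late genes as targets of complexes that join a MYB protein such as PAP1 with a basic helix-loop-helix protein (TT8, GL3 or EGL3) and TTG1. Light and sugar are both known to raise anthocyanins in seedlings.

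The probe for PGP1 (AT2G39290) was not well above background on any of the 3 pgp1-2 arrays. It gave log2 signals of 0.78, 0.93 and 0.73 in the wild type, at least 225.5-fold above the limit set by the mutant arrays. It was kept through the wild type alone, so no p is read from it. Signals throughout are log2 of the scanner's processed intensity minus the 75th percentile of the same array, which lay between 2620 and 3653, and differences are pgp1-2 minus wild type. Replicate 1 of both groups was hybridised on slide 1 and replicates 2 and 3 of both on slide 2. Of all 22681 genes, 52.4% passed the test (limma, Benjamini-Hochberg adjusted p under 0.05 over all genes), 27.9% higher and 24.5% lower in pgp1-2.

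The medians of the early and the late genes lay on opposite sides of 0. Of the 5 early genes, 4 rose in pgp1-2 seedlings (CHI, F3H, F3'H and FLS1, by 1.51-fold to 1.98-fold), and the median log2 difference of the 5 was 0.74. Of the 4 late genes, DFR fell to 0.516 times its wild-type signal and the other 3 did not pass the test, with a median log2 difference of -0.53 over the 4. The median over all genes was 0.034. The regulator PAP1 had a difference of 0.044 and did not pass. In all, 5 of the 10 genes were called, a share close to the 52.4% of all genes. No member reached a log2 difference of 1 in size together with a call, which 15.1% of all genes did (7.01% higher and 8.05% lower). The groups did not overlap at 6 of the 10, against 64.2% of all genes.

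**Figure D1:**
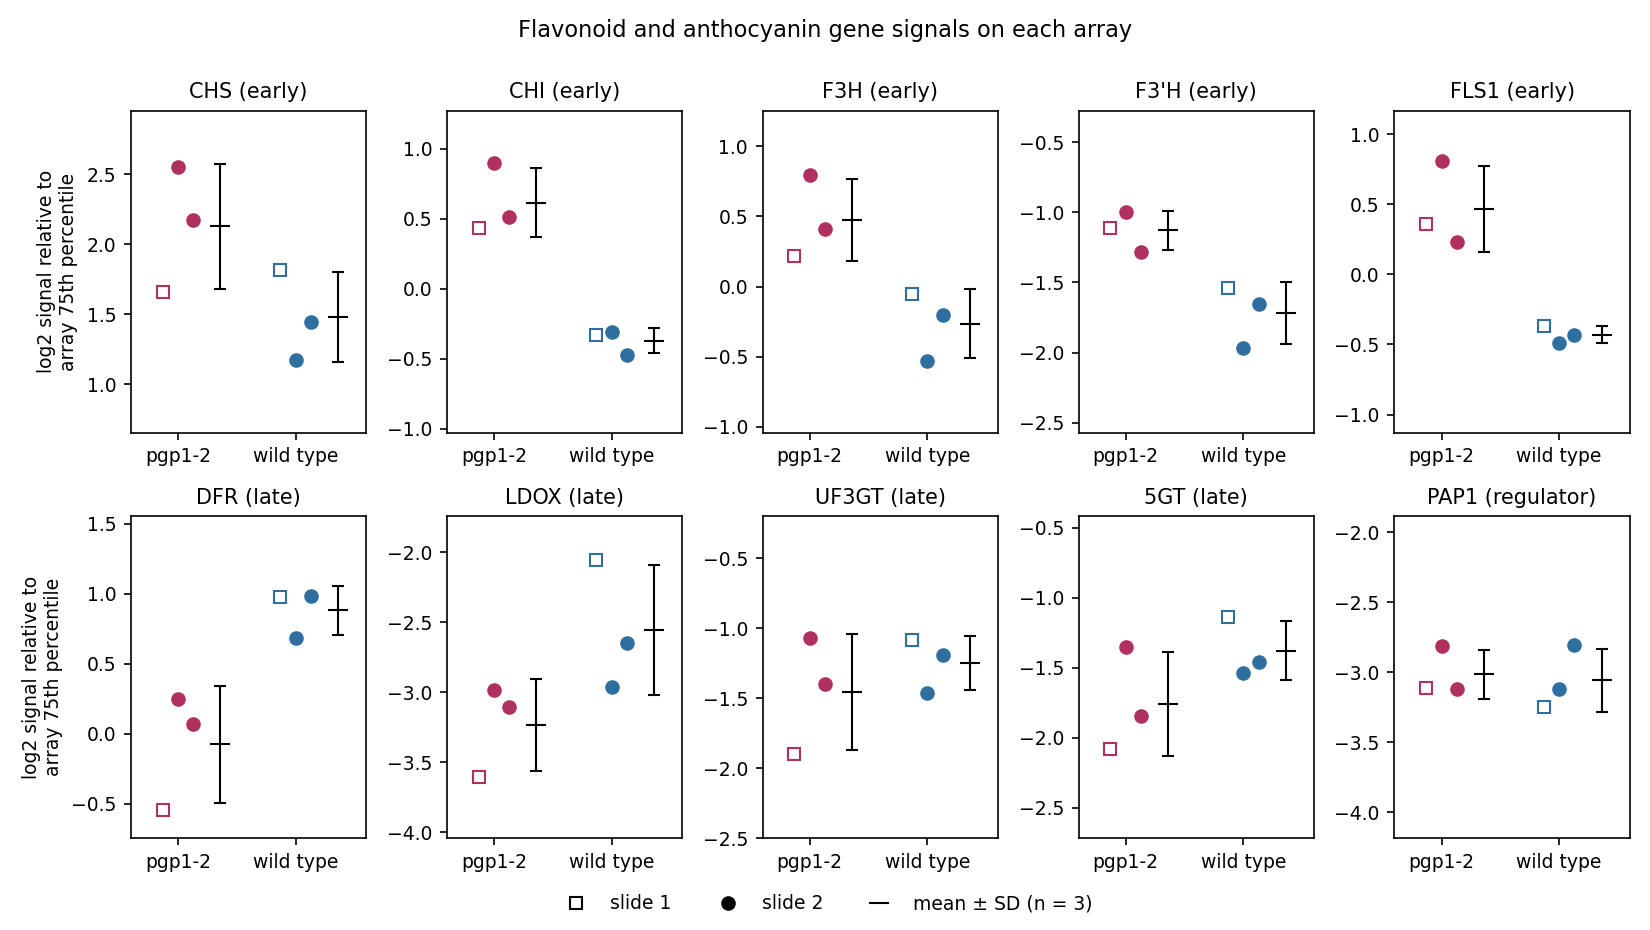
Log2 signal of each of the 10 genes relative to the 75th percentile of its array, for the 3 pgp1-2 arrays (left) and the 3 wild-type arrays (right) of each panel; squares are slide 1, circles are slide 2, bars are the mean ± SD (n = 3), and every vertical axis spans the same number of log2 units. The pgp1-2 points of CHI, F3H, F3'H and FLS1 lie above all wild-type points, those of DFR and LDOX lie below them, and those of CHS, UF3GT, 5GT and PAP1 overlap.

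CHS (AT5G13930), chalcone synthase, makes the chalcone from which all flavonoids derive. Its log2 signals were 1.66, 2.55 and 2.17 on pgp1-2 replicates 1 to 3, against 1.82, 1.17 and 1.45 on wild-type replicates 1 to 3. The pair of arrays on slide 1 had the mutant slightly below the wild type, whereas both slide 2 mutant arrays were above both slide 2 wild-type arrays. The means were 2.13 ± 0.45 in pgp1-2 and 1.48 ± 0.32 in the wild type (SD, n = 3), a difference of 0.65 with a standard error of 0.26, or 1.57-fold with a 95% confidence interval of 1.01 to 2.44 (limma adjusted p = 0.0816). CHS thus did not pass. Without pgp1-2 replicate 1 the difference was 0.88 and passed (limma adjusted p = 0.0304), and over all 19 alternative settings with a test the adjusted p ranged from 0.00148 to 0.214.

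CHI (AT3G55120), chalcone isomerase, closes the chalcone to the flavanone naringenin. Its signals were 0.43, 0.90 and 0.51 in pgp1-2, against -0.33, -0.31 and -0.47 in the wild type. The lowest mutant array was 0.75 above the highest wild-type array. The means were 0.61 ± 0.25 in pgp1-2 and -0.37 ± 0.089 in the wild type (SD, n = 3), and CHI rose by 0.99 with a standard error of 0.13, which is 1.98-fold (95% confidence interval 1.58 to 2.48; limma adjusted p = 0.00183).

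F3H (AT3G51240), flavanone 3-hydroxylase, makes the dihydroflavonols. It gave 0.22, 0.79 and 0.41 in pgp1-2, against -0.052, -0.53 and -0.21 in the wild type. The groups were apart by 0.27, less than the range within either group. The means of 0.48 ± 0.29 in pgp1-2 and -0.26 ± 0.25 in the wild type (SD, n = 3) differed by 0.74 with a standard error of 0.19, or 1.67-fold (95% confidence interval 1.22 to 2.29; limma adjusted p = 0.0176). Without wild-type replicate 2 the difference of 0.60 did not pass (limma adjusted p = 0.0505). Its other probe, which is dimmer, gave a closely similar difference of 0.71 (limma adjusted p over all kept probes = 0.0097).

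F3'H (AT5G07990), flavonoid 3'-hydroxylase, adds a hydroxyl group to the B ring and so sets the balance between kaempferol-type and quercetin-type products. Its signals were -1.11, -0.998 and -1.28 in pgp1-2, against -1.54, -1.97 and -1.65 in the wild type. All mutant values were higher, by at least 0.26. The means were -1.13 ± 0.14 in pgp1-2 and -1.72 ± 0.22 in the wild type (SD, n = 3). F3'H rose by 0.59 with a standard error of 0.14, 1.51-fold with a 95% confidence interval of 1.20 to 1.89 (limma adjusted p = 0.0126). A further probe of the gene gave 0.63 (limma adjusted p over all kept probes = 0.0133), and the third was too dim to be kept.

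FLS1 (AT5G08640), the main flavonol synthase of Arabidopsis, takes dihydroflavonols to flavonols. It gave 0.36, 0.81 and 0.23 in pgp1-2, against -0.37, -0.49 and -0.43 in the wild type. The wild-type arrays lay close together and all mutant arrays were above them. The means were 0.47 ± 0.30 in pgp1-2 and -0.43 ± 0.061 in the wild type (SD, n = 3). FLS1 rose by 0.90 with a standard error of 0.15, or 1.86-fold (95% confidence interval 1.43 to 2.42; limma adjusted p = 0.00439).

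DFR (AT5G42800), dihydroflavonol 4-reductase, competes with flavonol synthase for the dihydroflavonols and opens the anthocyanin branch. Its signals were -0.54, 0.25 and 0.069 in pgp1-2, against 0.98, 0.68 and 0.98 in the wild type. The highest mutant array was 0.43 below the lowest wild-type array. The means were -0.075 ± 0.42 in pgp1-2 and 0.88 ± 0.17 in the wild type (SD, n = 3). DFR fell by 0.95 on the log2 scale, standard error 0.22 (limma adjusted p = 0.0123), so that the mutant held 0.516 times the wild-type signal (95% confidence interval 0.358 to 0.744). Scaled to the spike-in probes in place of the 75th percentile, the difference was -0.54 and did not pass (limma adjusted p = 0.306), but it passed there with the slide as a block (limma adjusted p = 0.0361).

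LDOX (AT4G22880), leucoanthocyanidin dioxygenase, forms the coloured anthocyanidin. It gave -3.60, -2.99 and -3.10 in pgp1-2, against -2.05, -2.97 and -2.64 in the wild type. The groups did not overlap, but the margin was 0.022. The means were -3.23 ± 0.33 in pgp1-2 and -2.55 ± 0.46 in the wild type (SD, n = 3), and the difference of -0.68 with a standard error of 0.27 did not pass (limma adjusted p = 0.0776). It passed without wild-type replicate 2 (-0.88; limma adjusted p = 0.0458), the only setting of 19 with a test in which it did.

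Among the members, the glycosyltransferases of anthocyanins are UF3GT (AT5G54060) and 5GT (AT4G14090). UF3GT adds xylose to the sugar at the 3 position, and 5GT adds glucose at the 5 position. They are not the only such enzymes, and BGLU10, called higher, is given with the further lists. UF3GT gave -1.90, -1.07 and -1.40 in pgp1-2, against -1.09, -1.46 and -1.19 in the wild type. 5GT gave -2.08, -1.35 and -1.84 in pgp1-2, against -1.14, -1.54 and -1.46 in the wild type. The groups overlapped at both genes, and in both the slide 1 mutant array was the lowest of all 6. For UF3GT the difference was -0.21 ± 0.22 (standard error; fold 0.865, 95% confidence interval 0.597 to 1.25; limma adjusted p = 0.456). For 5GT it was -0.38 ± 0.21 (standard error; fold 0.768, 95% confidence interval 0.542 to 1.09; limma adjusted p = 0.167). Without pgp1-2 replicate 1 the UF3GT difference was 0.010, and without pgp1-2 replicate 2 the 5GT difference was -0.59 and passed (limma adjusted p = 0.0283).

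PAP1 (AT1G56650), production of anthocyanin pigment 1, is a MYB activator of the late genes. Its signals were -3.11, -2.81 and -3.12 in pgp1-2, against -3.25, -3.12 and -2.81 in the wild type. The groups overlapped fully. The means were -3.01 ± 0.18 in pgp1-2 and -3.06 ± 0.23 in the wild type (SD, n = 3), and the fold of 1.03 had a 95% confidence interval of 0.808 to 1.32 (limma adjusted p = 0.816). The sign of this small difference was not stable: it was -0.033 after quantile normalization, -0.014 when arrays were scaled by their medians, and 0.46 when they were scaled by spike-in probes.

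The early and the late genes were then compared within each array. With each gene centred on its mean over the 6 arrays, the 5 early genes averaged 0.19, 0.69 and 0.28 on pgp1-2 replicates 1 to 3, against -0.22, -0.55 and -0.39 on wild-type replicates 1 to 3. The 4 late genes averaged -0.68, 0.063 and -0.22 in pgp1-2, against 0.53, 0.032 and 0.27 in the wild type. Taken alone, the late average overlapped between the groups, since pgp1-2 replicate 2 was above wild-type replicate 2. The early average minus the late average was 0.87, 0.62 and 0.50 in pgp1-2, against -0.74, -0.58 and -0.66 in the wild type. These values were 0.66 ± 0.19 in pgp1-2 and -0.66 ± 0.081 in the wild type (SD, n = 3), a group difference of 1.33 on the log2 scale. A constant added to an array cancels in this value, so it does not move with the percentile, median or spike-in scaling. It was 1.30 without FLS1, which belongs to the flavonol branch. No p is given for it, because the members were chosen with results of these data known.

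**Figure D2:**
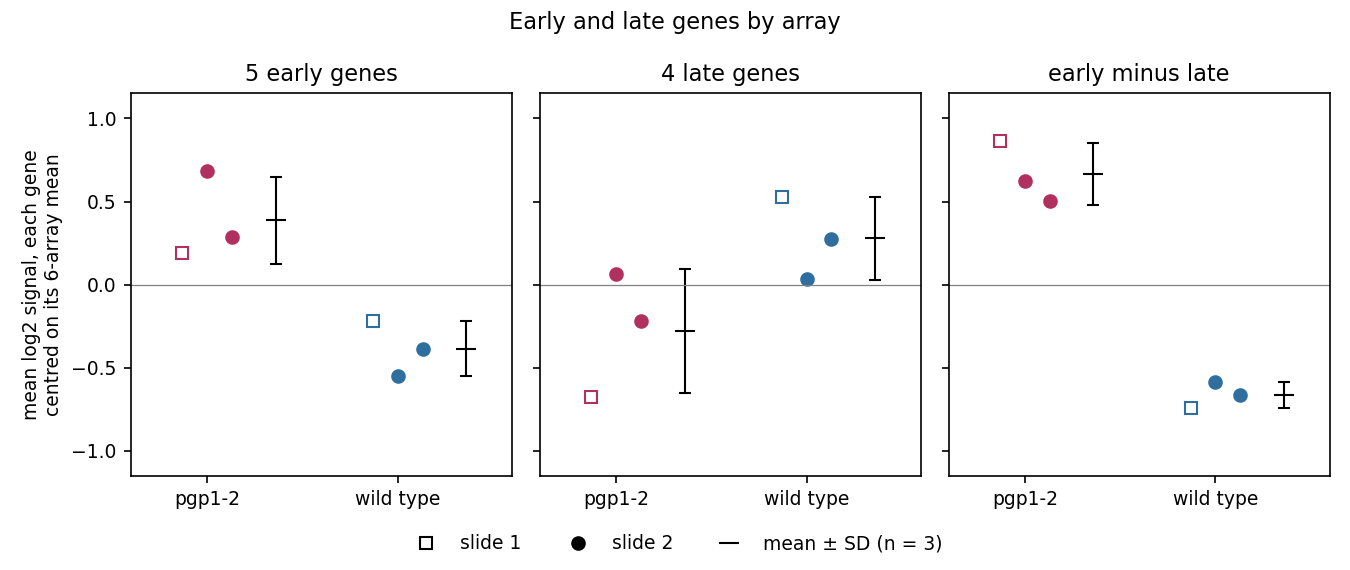
Mean log2 signal of the 5 early genes (left), of the 4 late genes (middle) and the first minus the second (right) on each array, each gene centred on its mean over 6 arrays; squares are slide 1, circles are slide 2, and bars are the mean ± SD (n = 3). The early-minus-late values lie between 0.50 and 0.87 in pgp1-2 and between -0.74 and -0.58 in the wild type, while the late averages overlap between the groups.

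The same values were also read as single pairs of genes, which adds no separate support. In all 20 pairs of an early and a late member, the within-array log2 ratio of early to late was higher on every pgp1-2 array than on every wild-type array, with group differences between 0.80 (F3'H with UF3GT) and 1.94 (CHI with DFR). These pairs recombine the same 9 genes and are not independent. For CHI, F3H, F3'H or FLS1 with DFR or LDOX, the lack of overlap follows from the single genes, whose groups did not overlap. Groups also fail to overlap at 64.2% of single genes, and no such share was computed for pairs of other genes. At the branch point, the ratio of FLS1 to DFR, centred on its mean over the arrays, was 1.28, 0.94 and 0.55 in pgp1-2, against -0.96, -0.78 and -1.03 in the wild type. It was 3.61-fold higher in pgp1-2. A signal ratio between probes does not give the ratio of the transcripts, so only its change between groups is read.

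The members tended to be high or low on the same arrays of a group. Within pgp1-2, replicate 2 had the highest signal at all 10 genes and replicate 1 the lowest at 7. Within the wild type, replicate 1 was the highest at 7 genes and replicate 2 the lowest at 8. The same counts were not made over all genes, so this order is not read as particular to the members. The slides gave different sizes to the same comparison. On slide 1, with 1 array per group and no test, the early genes differed by -0.16 (CHS) to 0.76 (CHI) and the late genes by -1.55 (LDOX) to -0.81 (UF3GT). On slide 2, with 2 arrays per group, the early genes differed by 0.67 (F3'H) to 1.097 (CHI) and the late genes by -0.67 (DFR) to 0.090 (UF3GT). CHS passed within slide 2 (1.05; limma adjusted p = 0.0232), as did CHI, F3H, FLS1 and, in the other direction, DFR. The early-minus-late difference was 1.61 on slide 1 and 1.19 on slide 2. The part of the slide in the size of the early and late differences was not tested further.

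**Figure D3:**
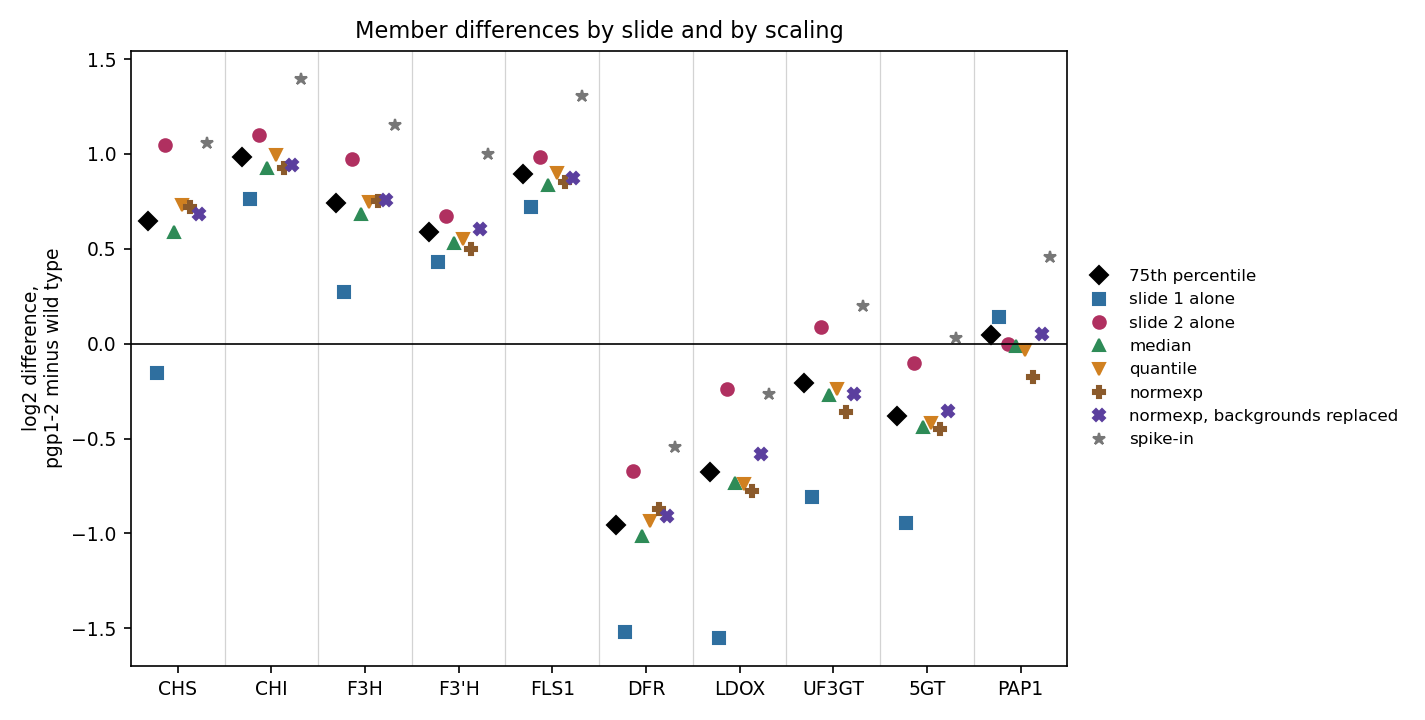
Log2 difference (pgp1-2 minus wild type) of each of the 10 genes with all 6 arrays scaled to the 75th percentile, on each slide alone, and under 5 other ways of scaling or background correction. The 5 early genes lie above 0 in all cases except CHS on slide 1, DFR and LDOX lie below 0 in all, and UF3GT, 5GT and PAP1 lie on both sides of 0.

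The rest of the pathway was read from lists of 48 further genes, of which 38 were kept. Of these, 13 were called higher and 5 lower by limma, a called share close to the 52.4% of all genes, with a median log2 difference of 0.11. Every one of the lists held members that did not pass.

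The general phenylpropanoid enzymes turn phenylalanine into the coumaroyl-CoA that CHS uses, and also feed lignin synthesis. Of 8 such genes, 4 were called higher, 1 lower and 3 were not called, with a median of 0.33. 4CL2, a coumarate-CoA ligase, rose by 0.88 (limma adjusted p = 0.00393). The phenylalanine ammonia-lyases PAL3 and PAL2 rose by 0.58 and 0.38 (limma adjusted p = 0.0281 and 0.0241). PAL4, another gene of that family, fell by 1.44 on the log2 scale (limma adjusted p = 0.000219), with means of -2.13 ± 0.13 in pgp1-2 and -0.70 ± 0.099 in the wild type (SD, n = 3). The PAL and 4CL genes have related copies that could share a probe's signal. With 1 array left out, PAL3 passed in 3 of 6 cases (0.42 to 0.74) and PAL2 in 2 (0.31 to 0.46); over all 19 alternatives with a test, 4CL2 passed in 18, PAL3 in 13, PAL2 in 10 and PAL4 in 19.

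Among 9 other flavonol genes, 7 were kept, 2 of them called higher and 2 lower, with a median of 0.078. FLS3, another gene of the flavonol synthase family, fell by 1.96 on the log2 scale (limma adjusted p = 0.000355), opposite to FLS1. Its means were low, -5.51 ± 0.32 in pgp1-2 and -3.55 ± 0.050 in the wild type (SD, n = 3). A further FLS3 probe was too dim to be kept. Under the normexp background correction with outlying local backgrounds replaced, the FLS3 difference was smaller, at -1.38. OMT1, a methyltransferase of phenolics and flavonols, rose by 0.50 (limma adjusted p = 0.0146), and UGT89C1, a flavonol rhamnosyltransferase, by 0.36 (limma adjusted p = 0.0334). RHM1, which makes the rhamnose donor, fell by 0.39 on the log2 scale (limma adjusted p = 0.0299) and was at 0.021 relative to the spike-in probes. Its other kept probes were at -0.30 and -0.42 and did not pass (limma adjusted p over all kept probes = 0.0771 and 0.108). UGT78D3 and UGT73C6 did not pass the filter on dim probes. With 1 array left out, OMT1 passed in 5 of 6 cases, UGT89C1 in 3 and RHM1 in 1, with all differences in the same direction. With the slide as a block UGT89C1 did not pass (limma adjusted p = 0.0543). Over all 19 alternatives with a test, OMT1 passed in 16, UGT89C1 in 9, RHM1 in 8 and FLS3 in 19.

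Of 6 other anthocyanin genes, 2 were called higher and none lower, with a median of -0.11. SCPL10, an acyltransferase that uses sinapoylglucose, rose by 0.98 (limma adjusted p = 0.00146). BGLU10, a glucosyltransferase of anthocyanins, rose by 0.50 (limma adjusted p = 0.00524), and passed in 17 of 19 alternatives with a test. The acyltransferase genes 3AT1, 3AT2 and 5MAT and the transport-related glutathione transferase GSTF12 were not called, at -0.29 to -0.074. Of 4 genes for proanthocyanidins, the pigments of the seed coat, AHA10 alone was kept and was not called (-0.050). BAN, TT12 and TT10 did not pass the filter.

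**Figure D4:**
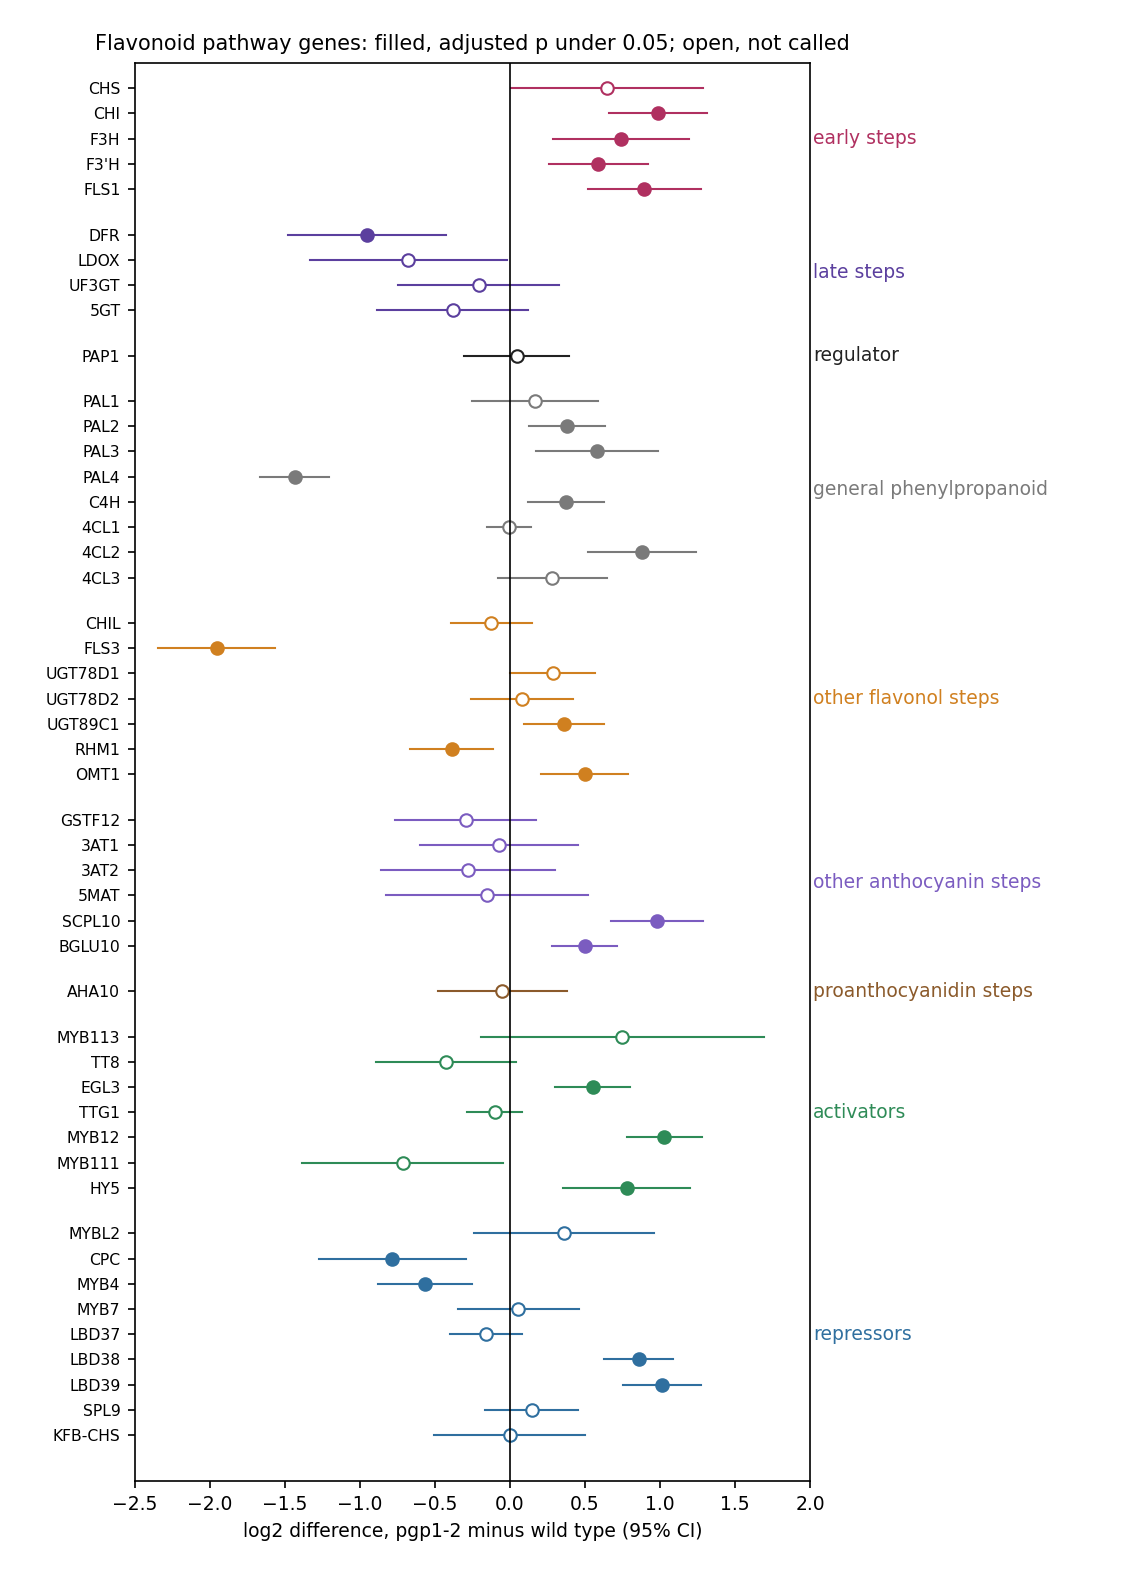
Log2 difference (pgp1-2 minus wild type) of the 10 genes and of 38 further genes of the pathway, with 95% confidence intervals from limma (3 arrays per group); filled points passed the adjusted p threshold of 0.05 over all genes. CHI, F3H, F3'H and FLS1 lie to the right with DFR to the left. Filled points occur on both sides among the phenylpropanoid, other flavonol and repressor genes, and to the right alone among the other anthocyanin genes and the activators. Among the activators, MYB12 is filled but was kept through pgp1-2 alone.

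Of 12 activator genes, 7 were kept, 3 were called higher (MYB12, HY5 and EGL3) and none lower. Over all genes, 27.9% were called higher and 24.5% lower. MYB12, a flavonol activator of the early genes, was kept through pgp1-2 alone, since 1 of the 3 wild-type arrays had it well above background, and nothing is read from its call. It gave means of -4.92 ± 0.041 in pgp1-2 and -5.95 ± 0.18 in the wild type (SD, n = 3), and the difference of 1.03 between them was -0.41 under the normexp background correction and 0.36 when outlying local backgrounds were replaced first. MYB111, a close relative of MYB12, was at -0.72 and did not pass (limma adjusted p = 0.0709). HY5, a light-signalling factor, rose by 0.78 (limma adjusted p = 0.0116). EGL3, a partner of the MYB activators, rose by 0.55 (limma adjusted p = 0.00598; -0.052 and not called under normexp, and called in 16 of 19 alternatives with a test). Its fellow partner TT8 was at -0.42 and TTG1 at -0.10, and neither passed. MYB113 did not pass (0.75; limma adjusted p = 0.151). PAP2, MYB114, GL3 and TT2 were too dim to be kept, and the probe of MYB11 was lost to outlier marks. PAP1, PAP2, MYB113 and MYB114 are close copies, so the signal of a single one is uncertain.

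All 9 genes on the list of repressors were kept, 2 of them called higher and 2 lower, with a median of 0.055. LBD39 and LBD38, known as nitrogen-responsive repressors of anthocyanin synthesis, rose by 1.01 and 0.86 (limma adjusted p = 0.000775 and 0.000874). The third member of that group, LBD37, was at -0.16 and did not pass. A second, dimmer probe of LBD37 was at -0.26 and passed (limma adjusted p over all kept probes = 0.0362). CPC, a small MYB protein that competes with the activators, fell by 0.78 on the log2 scale (limma adjusted p = 0.0193). MYB4, a repressor of phenylpropanoid genes, fell by 0.57 (limma adjusted p = 0.0121). With 1 array left out, CPC passed in 3 of 6 cases (-0.98 to -0.58). Relative to the spike-in probes neither repressor passed, in the plain fit or with the slide blocked: CPC was at -0.37 (limma adjusted p = 0.477, or 0.119 with the block) and MYB4 at -0.16 (limma adjusted p = 0.774, or 0.544 with the block). KFB-CHS, an F-box gene whose product targets chalcone synthase for degradation, did not pass, at -0.0022.

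By Euclidean distance between log2 signals centred over the 6 arrays, the gene nearest to CHS among all 22681 was F3H, at 0.32. UMAMIT30 (AT4G01450), of a family of amino acid transporters, and a transcript known by the array's own accession only came next, both at 0.39. Nearest to DFR were a pair of transcripts known by accession only, at 0.076 and 0.29, with CDF1 (AT5G62430), a Dof transcription factor of flowering control, between them at 0.28. Whether the pair are transcripts of DFR itself was not tested. None of these distances carries a test.

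Tissue markers were read beside these results. All 8 shoot markers were kept, 1 called higher and 2 lower, and their summed linear signal was 139 to 159 times the array's 75th percentile in pgp1-2, against 189 to 199 times in the wild type. Without RBCS1A, which makes up most of it, the sum was 17.6 to 22.4 in pgp1-2 and 21.0 to 22.8 in the wild type, and the groups overlapped. Most of what remains is CER6 (-0.20, not called), so this overlap is largely that of a single gene. Of the others, KAN1 was called lower (-0.76) and FAMA higher (0.72). Of 10 root markers 7 were kept, 1 called higher and 5 lower. Their summed linear signal was 1.55 to 1.61 in pgp1-2, against 2.09 to 2.21 in the wild type. SCR (-0.0092, not called) and SHR (-0.52, called lower) make up most of this sum, so it is not a level of all 7. It also includes COBL9 and CASP1, from whose calls nothing is read. Over all genes, 27.9% were called higher and 24.5% lower, and the markers were not tested as a set. COBL9, the root marker called higher, was well above background on 2 of 3 wild-type arrays. It was kept through pgp1-2 alone, so nothing is read from its call. CASP1, a marker of the root endodermis, was well above background on 1 of 3 pgp1-2 arrays and on all 3 wild-type arrays. No size is given for it, and nothing is read from its call, which is among the 5 lower. EXP7, EXP18 and PIN2 were not kept. Of 5 flower markers 2 were kept, with summed signals of 0.226 to 0.571 in pgp1-2 against 0.107 to 0.210 in the wild type; SEP3 rose by 2.36 (limma adjusted p = 0.00263), PI was not called, and AP1, AP3 and AG were not kept. Seed markers were near the background: 0 of 6 were kept, and 11 of their 13 probes were well above background on no array. The part of shoots, roots or floral tissue in the differences of the flavonoid genes was not tested, and fewer cells of a type cannot be told apart here from less RNA per cell.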

How the data were processed

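The authors scanned 6 Cy3 arrays in 1 channel with Agilent Feature Extraction 10.7.1.1; the deposited files hold, per the file headers, a background-subtracted, detrended intensity per spot (the processed signal), raw median intensities of spot and local background, and flags, an other unit of 0 or 1. No scaling between arrays is recorded there. From the processed signal, log2 was taken and each array's 75th percentile over non-control spots subtracted. Outlying spots (9 to 82 per array) were left out, no spot was saturated, and 68.5% to 79.1% of spots were well above background. Probes were kept if well above background on all 3 arrays of a group, and the brightest kept probe stood for a gene. The 197 probes with no usable spot on at least 1 array were dropped. Loci (25433) were found for 34358 of 43603 probes in a RefSeq gene table (TAIR10.1), whose assembly differs from the file headers' build, so that no coordinates are given. Groups came from the sample titles. The 22681 genes were fitted together with limma 3.58.1 in R 4.3.3 (lmFit, eBayes, two-sided, Benjamini-Hochberg over all genes, threshold 0.05). The procedure was also run on simulated data with independent genes, few of them changed, and no slide effect. These data differ from that setting, so the run does not show how well the p-values hold here. Precision is limited by how few arrays there are. Groups of 3 samples have too few values for an outlier test.

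The 10 genes, the other lists and the alternatives were chosen with earlier results of these data known, and repeated patterns are no independent support. Genes named are the 10; of each further list, up to 4 called genes with the largest change, and those not kept; the 3 genes nearest to CHS and to DFR; and PGP1. Further list members named with their values, and the pairs of genes compared within arrays, were chosen after values were seen. Same-numbered arrays deviated together weakly, with correlations of 0.081, 0.12 and 0.059 across genes. These lay above the -0.14 to 0.039 of arrays with different numbers. The main fit did not take the numbers to pair samples, and a fit with the replicate number as a block is among the alternatives. Alternatives covered background correction, scaling, dim-probe filter, probe choice, slide, replicate number, variance model and each array left out. Promoter and protein sequences were not analysed here.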

Additional observations from a re-analysis of the deposited data

How the results depend on the processing

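The early-minus-late difference lay between 1.19 and 1.61 over the alternatives, 1.23 to 1.41 with 1 array left out, and slide 1 gave 1.61. Several alternatives could not move it: median and spike-in scaling, the blocks and the variance model leave it at 1.33 by construction. The dim-probe filters also left it at 1.33, since they did not change the probes of the members. Members called numbered 4 to 6. CHI and FLS1 were called in all 19 alternatives with a test, DFR in 18. Genes called over the whole table, 11884 by default, numbered 6698 under normexp (42.1% higher, against 53.2%), 4559 under spike-in scaling (76.3% higher) but 12814 (83.3% higher) there with the slide as a block, 6915 within slide 2, which has fewer arrays, and 9597 to 11129 with 1 array left out. The 18 further pathway genes became 11 under normexp, 10 under spike-in scaling (21 with the slide as a block) and 10 within slide 2, and 11 to 19 with 1 array left out. Spike-in scaling adds 0.41 to every gene.

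Under spike-in scaling CHS was 1.06 and called (also with the slide as a block), DFR -0.54 and not called (called with the block), UF3GT 0.20, 5GT 0.029 and RHM1 0.021, the last 3 with or without the slide block. Under normexp F3'H (0.50) was not called, PAP1 was -0.18, MYB12 -0.41 and EGL3 -0.052. The normexp fit had raised the lower quartile of wild-type replicate 3 to 495, against 81.3 to 128 on the other arrays; local backgrounds on that replicate reached 7592. With its 22 backgrounds above 2 times the array median set to the median (and 11 on other arrays), an alternative chosen after seeing the data, the quartile was 98.9, 11819 genes were called, CHS was called (0.68), and PAP1, MYB12 and EGL3 were at 0.050, 0.36 and 0.37. PAP1 was -0.033 under quantile normalization, -0.014 under median scaling and -0.0035 within slide 2.

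Within slide 1, differences were -0.16 (CHS), 0.76 (CHI), 0.27 (F3H), -1.52 (DFR), -1.55 (LDOX), -0.81 (UF3GT) and -0.94 (5GT). Within slide 2, CHS was called (1.05), F3'H was not (0.67), and UF3GT was 0.090. F3H (0.74) was not called without the dim-probe filter, where more genes are tested, nor with the replicate block, which left 11015 genes called. With 1 array left out, ranges were 0.44 to 0.88 for CHS, 0.58 to 0.87 for F3H, -0.88 to -0.43 for LDOX, -0.40 to 0.010 for UF3GT, -0.59 to -0.22 for 5GT and -0.057 to 0.17 for PAP1. Other causes were not tested.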

Other observations

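At some genes of the pathway the probes disagreed. The brighter probe of GSTF12, which was read above, was at -0.29 and not called, while its second probe rose by 0.45 (limma adjusted p over all kept probes = 0.0356). The brighter probe of 3AT1 was at -0.074 and not called, while its second probe fell by 0.95 on the log2 scale (limma adjusted p over all kept probes = 0.00499). The array files hold no annotation of transcript ends or isoforms, and which probe reports the main transcript was not tested. The 4 probes of OMT1, by contrast, gave 0.50 to 0.62.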
